A study of Mus musculus with 14 samples.

Results

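The axon guidance ligands and receptors examined here are 72 genes, taken by gene symbol from the 20492 genes of the deposited tables. They are 20 semaphorins, 9 plexins, 2 neuropilins, 8 ephrins, 14 Eph receptors, 3 Slits, 4 Robo receptors, 6 netrins (with the netrin-G genes) and 6 netrin receptors. FPKM (fragments scaled by length and library total) was summed over the rows of each gene. By this sum 68 genes in cortex and 69 in hippocampus reached 0.5 FPKM in at least 1 condition. Efna4, Epha1 and Epha2 stayed below that level in both tissues and Sema3b stayed below it in cortex. The samples are total RNA of cortex and hippocampus from C57BL/6 mice aged 3 months. The labels give 4 control and 3 TRF2 depleted samples of cortex, and 3 control and 3 TRF2 depleted samples of hippocampus. The design text calls the cohorts WT and TRF2-DCX-cre, where Cre stands under Dcx, which is active in young neurons. TRF2 is the product of Terf2 and shields telomeres. Cells that never used Dcx are no target of such a Cre, and the tissue was sequenced whole. A further sample has labels that name both tissues and was placed in no group. The hippocampus table also holds a condition named DKO that no label describes, and it is given under that name only.

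Guidance cues steer growing axons by attraction or repulsion. Secreted semaphorins act mostly through neuropilins with plexins, and membrane semaphorins mainly through plexins. Ephrins act through Eph receptors, Slits through Robo receptors and netrins through Dcc and the Unc5 family. In the adult brain many of the same proteins stay in use at synapses, where they limit or stabilise spines, and in the hippocampus ephrins and semaphorins act on granule and pyramidal neurons.

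Every condition has 1 pooled FPKM value per row, so no value for a single sample and no error between samples can be given, and the read depth is unknown. Differences between conditions are judged by the authors' Cuffdiff test, whose p-values also give the implied intervals and the comparison of tissues, and a gene counts as called where its most abundant tested row has q up to 0.05 in the authors' deposited table. Summed over its rows, Terf2 stood at 3.59 FPKM in control cortex against 0.202 after depletion, and at 2.01 FPKM in control hippocampus against 0.883 after depletion and 0.753 in DKO. Cortical projection neuron markers summed to 115 FPKM in control cortex and 33.4 in control hippocampus, and dentate granule neuron markers to 91.8 and 151 FPKM. The tables were normalised separately, which touches every level set across tissues.

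Among the ligands, Sema7a was the most abundant in control cortex and Efnb3 in control hippocampus. Sema7a, a semaphorin with a lipid anchor that binds Plxnc1, had 34.1 FPKM in control cortex, the highest level of all 72 genes there, and 17.8 FPKM in control hippocampus. Sema6b, a ligand of A-type plexins, had 17.6 and 19.1 FPKM. The secreted Sema3a, which repels axons through Nrp1, had 5.08 FPKM in control cortex and 0.728 in control hippocampus, the widest gap in favour of cortex among genes that passed 0.5 FPKM in both tissues (log2 ratio of hippocampus over cortex -2.80). Sema3e, the ligand of Plxnd1, had 3.92 and 6.54 FPKM. Of the ephrins, Efnb3, which marks the spinal midline for corticospinal axons, was at 8.68 FPKM in cortex and 20.9 in hippocampus, Efna3, known from astrocytes around hippocampal spines, at 10.7 and 12.9, and Efna5 at 6.33 and 1.39. Slit1 was the most unequal of the Slits, with 1.66 FPKM in control cortex and 10.4 in control hippocampus (log2 ratio 2.64). The netrin-G gene Ntng1, whose product is lipid anchored and binds a synaptic adhesion partner, had 3.11 and 5.16 FPKM, and the secreted Ntn1 had 1.08 and 0.865 FPKM.

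Among the receptors, Epha4, which binds ephrins of both classes, was the most abundant of the 72 genes in control hippocampus at 26.7 FPKM, with 16.2 FPKM in control cortex. Epha7 followed at 23.1 FPKM in control hippocampus and 10.1 in control cortex. Epha6 had 15.9 and 5.38 FPKM in the same order. Ephb6, an Eph receptor that lacks kinase activity, ran the other way, with 20.7 FPKM in control cortex and 7.22 in control hippocampus (log2 ratio -1.52). Plxna1 and Plxna2 led the plexins in control hippocampus at 12.5 and 9.89 FPKM, and Plxna2 led them in control cortex at 12.3 FPKM. The neuropilins Nrp1 and Nrp2 were nearly level in control hippocampus at 7.79 and 7.91 FPKM, and stood at 5.40 and 2.20 FPKM in control cortex. Robo1 had 1.41 FPKM in control cortex and 4.33 in control hippocampus, while Robo2 had 4.57 and 3.24. Among the netrin receptors Unc5c led in both tissues, at 3.59 and 5.35 FPKM, and Dcc, the receptor for attraction, had 2.13 and 3.07 FPKM.

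**Figure D1:**
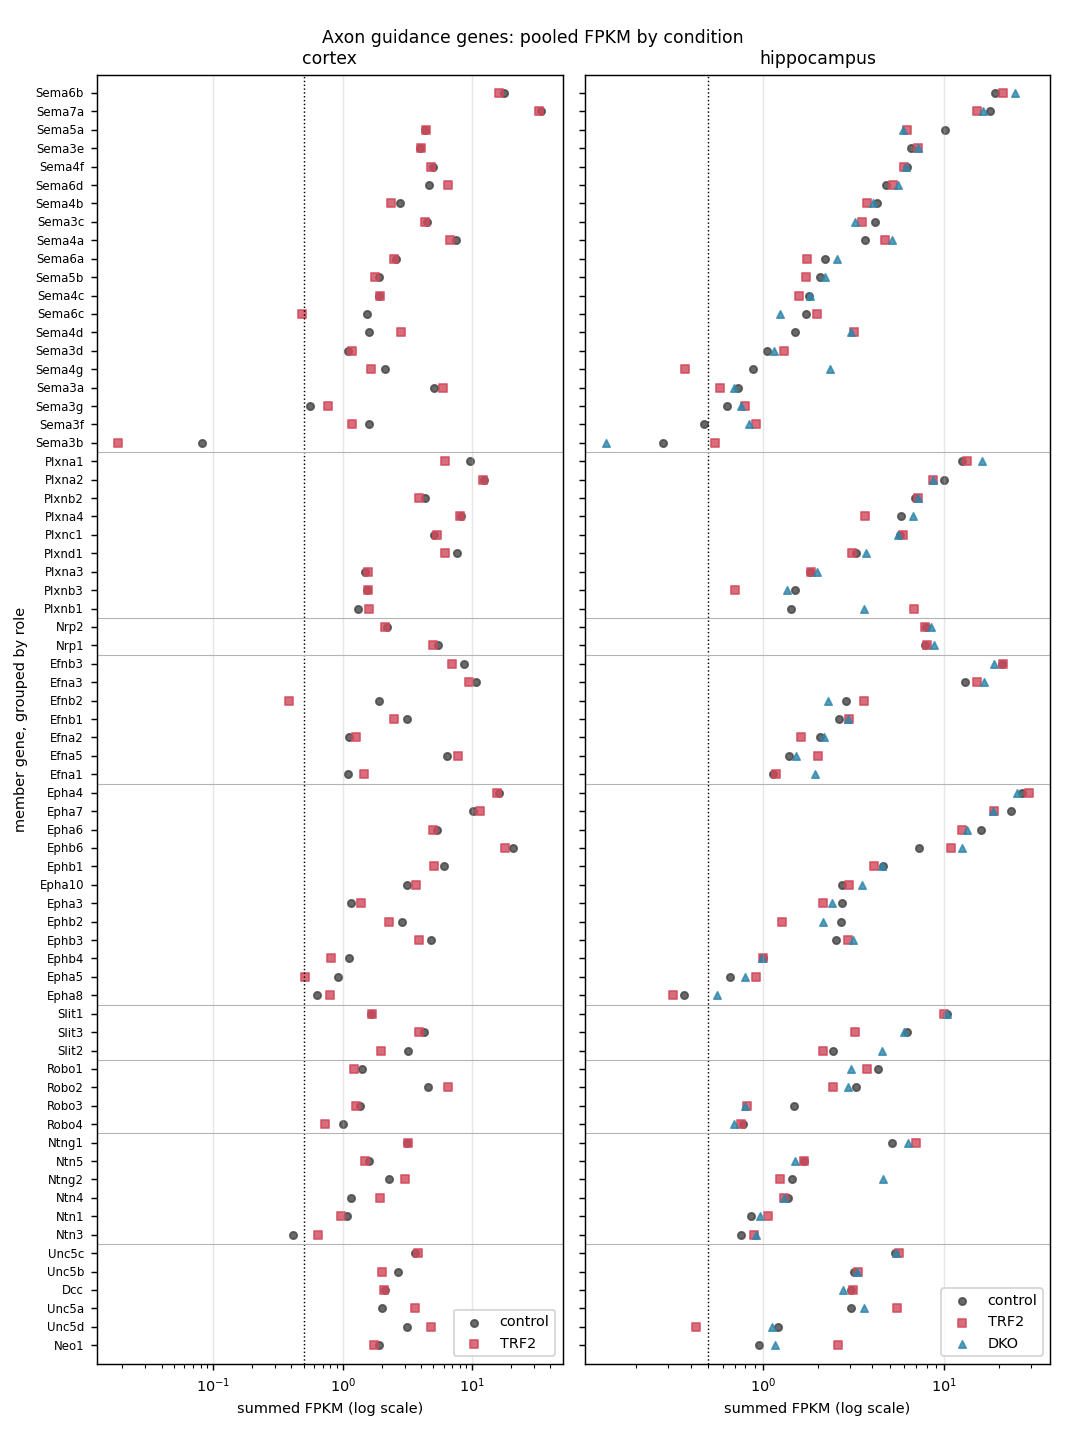
Summed FPKM of the 69 axon guidance genes that reached 0.5 FPKM in hippocampus (dotted line at 0.5), on a log axis, in cortex on the left and hippocampus on the right, ordered within each role by the level in control hippocampus. Each symbol is the authors' pooled value of 1 condition, so no error bar can be drawn, and in the hippocampus panel the control symbol of Sema5a stands apart from the other two at 10.0 against 6.22 and 5.90 FPKM.

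Of the 68 genes that passed in both tissues, 8 were at least 2-fold higher in control hippocampus, 9 were at least 2-fold higher in control cortex, and 51 lay within 2-fold. The hippocampal side held Slit1, Nrp2, Robo1, Epha6, Efnb3, Epha3, Sema5a and Epha7. The cortical side held Sema3a, Efna5, Sema3f, Ephb6, Unc5d, Sema4g, Plxnd1, Sema4a and Neo1. Both genes called below lie on these lists, Sema5a on the hippocampal one and Ephb6 on the cortical one. These ratios are descriptions, since no test across the tables was made.

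**Figure D2:**
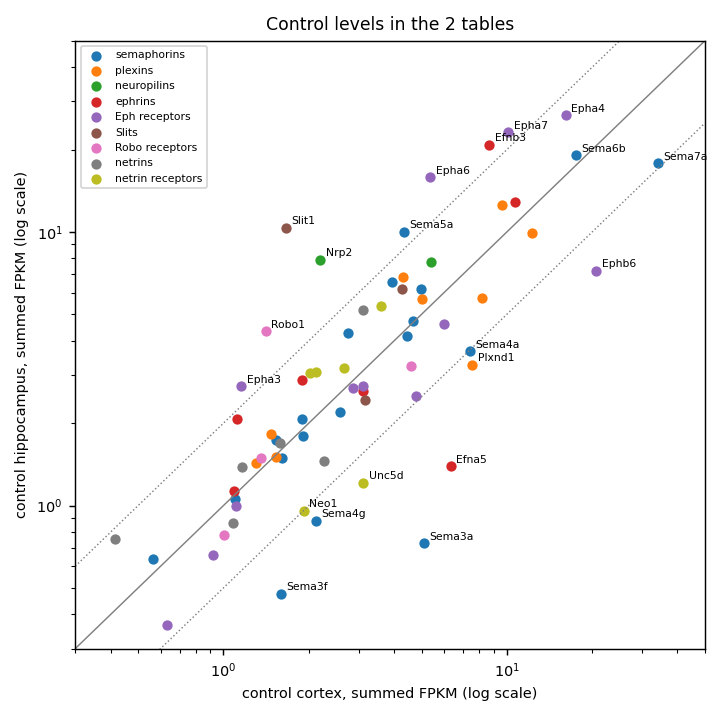
Summed FPKM in control cortex (x axis) and control hippocampus (y axis), both on log axes, for the axon guidance genes that reached 0.5 FPKM in both tissues, coloured by role. The solid line marks equal levels and the dotted lines a 2-fold ratio, and Slit1 (1.66 and 10.4 FPKM) and Sema3a (5.08 and 0.728 FPKM) lie far outside them on opposite sides.

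In TRF2 depleted hippocampus Sema5a was lower and was the 1 guidance gene called at a q up to 0.05. Sema5a is a membrane semaphorin with thrombospondin repeats that in mouse granule neurons restrains synapse number through Plxna2. It stood at 10.0 FPKM in control, 6.22 in TRF2 depleted and 5.90 FPKM in DKO hippocampus in the authors' deposited table. Both altered conditions were thus lower than control and close to each other. The log2 ratio to control was -0.69 in TRF2 depleted hippocampus (p = 5e-05, q = 0.0301 by Cuffdiff in the authors' deposited table) and -0.76 in DKO hippocampus (p = 5e-05, q = 0.0301 by Cuffdiff in the authors' deposited table). Both comparisons share the control samples. DKO against TRF2 gave -0.08 (p = 0.621 by Cuffdiff in the authors' deposited table), with a 95% interval from -0.38 to 0.23 when the error is read from the deposited p. In cortex Sema5a had 4.32 and 4.36 FPKM in control and depleted samples (p = 0.906 by Cuffdiff in the authors' deposited table), with a 95% interval of the log2 ratio from -0.20 to 0.22.

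The fall of Sema5a ran beside a fall of dentate granule neuron markers in the same hippocampus samples. Of 12 such markers, 12 were lower in TRF2 depleted and 12 lower in DKO hippocampus, with median log2 ratios of -0.97 and -0.61. Their summed level was 151 FPKM in control, 91.3 in TRF2 depleted and 101 in DKO hippocampus, and none of the 12 was listed at 0. Of the 11 tested, 6 and 4 passed the authors' test as lower, beside 0.122% and 0.132% of all tested genes. The list was chosen with earlier results of these data known, so these counts are descriptions only. Prox1, a transcription factor of granule neurons, had 4.88, 1.38 and 2.64 FPKM in the 3 conditions in the authors' deposited table. C1ql2, a secreted protein of granule neuron synapses, had 19.2, 11.4 and 12.7 FPKM in the authors' deposited table. In bulk tissue fewer cells of a type and less RNA per cell cannot be told apart. The part of the granule neuron markers' shift in the value of Sema5a was not tested. Plxna2, the receptor named above, had 9.89, 8.68 and 8.67 FPKM in control, TRF2 depleted and DKO hippocampus (p = 0.124 and p = 0.101 against control by Cuffdiff in the authors' deposited table).

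**Figure D3:**
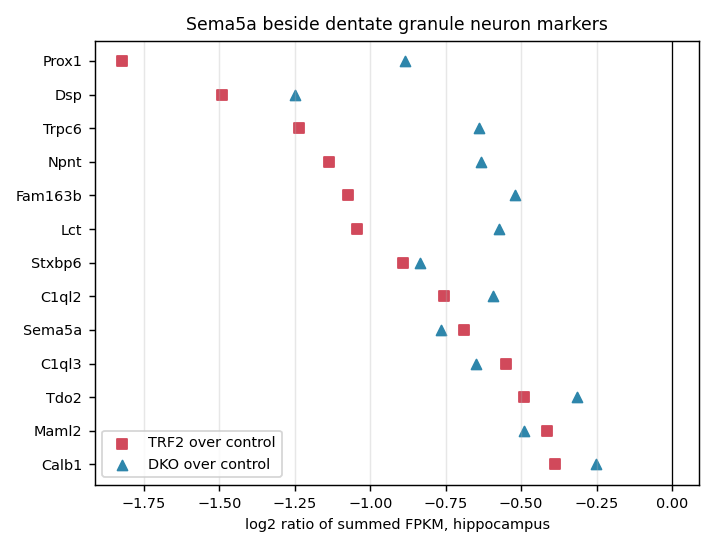
Log2 ratio of summed FPKM to control hippocampus (x axis) for Sema5a and 12 dentate granule neuron markers (y axis, ordered by the TRF2 ratio), with squares for TRF2 depleted and triangles for DKO samples. Each point is a ratio of pooled values without an error bar. All lie below 0, and Sema5a at -0.69 and -0.76 lies inside the span of the markers. The markers were chosen with earlier results of these data known.

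The promoter of Sema5a is shown because this gene passed the test in both conditions, and that of Ephb6 because it is the other called guidance gene. Sema5a lies on chromosome 15, plus strand, from 32244813 to 32696341 in the deposited mm10 locus, and its principal transcript in GENCODE M21 has 23 exons and a coding length of 3222 bases. Ephb6 lies on chromosome 6, plus strand, with a deposited locus from 41605482 to 41636405 (mm10), 18 exons and a coding length of 3042 bases. That locus runs past the annotated end of Ephb6 at 41620509 and also covers the coding gene Trpv6. Below are the RefSeq promoters (GRCm38.p6, the assembly of mm10) from 250 bases before to 50 bases after the start, at chr15:32244563-32244862 (plus strand) for Sema5a and chr6:41605261-41605560 (plus strand) for Ephb6. Capitals mark GGGCGG on either strand, the GC box, with overlapping matches run together.
Sema5a: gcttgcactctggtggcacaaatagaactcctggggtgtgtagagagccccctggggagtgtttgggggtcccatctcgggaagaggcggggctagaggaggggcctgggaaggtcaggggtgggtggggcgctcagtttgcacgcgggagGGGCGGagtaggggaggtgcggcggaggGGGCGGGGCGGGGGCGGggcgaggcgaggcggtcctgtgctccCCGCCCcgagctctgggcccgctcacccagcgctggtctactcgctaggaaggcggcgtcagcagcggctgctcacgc
Ephb6: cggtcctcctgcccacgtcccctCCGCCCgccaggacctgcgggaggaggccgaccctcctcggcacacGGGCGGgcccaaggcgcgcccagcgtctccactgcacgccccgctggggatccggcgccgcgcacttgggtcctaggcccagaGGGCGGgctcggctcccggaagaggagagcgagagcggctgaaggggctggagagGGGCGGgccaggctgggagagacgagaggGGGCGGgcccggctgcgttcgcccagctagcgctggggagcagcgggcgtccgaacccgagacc
Each promoter holds 5 GGGCGG matches. The GC box was found in 70.5% of the 78 promoters of the 62 guidance genes that matched the RefSeq table and in 35.7% of all 32851 promoters of the same length. The guidance promoters were also richer in G and C, with a median of 64.2% against 52.7%, and Sema5a and Ephb6 stood at 71.3% and 76.3%. TTAGGG, the unit of the telomere repeat that TRF2 binds, was looked for on both strands. It was in neither sequence, in 12.8% of the guidance promoters and in 10.6% of all promoters. A match is only a match of letters, and no binding was measured.

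In TRF2 depleted hippocampus 1 of the 49 tested guidance genes was called, beside 0.183% of all tested genes (0.122% called lower). At an unadjusted p under 0.05 there were 4, beside 5.21% of all tested genes. Of the 4 genes 2 were higher and 2 lower, where 2.55% of all tested genes were higher and 2.66% lower. Meningeal fibroblast markers (11 of 11 higher, summed 197 and 308 FPKM) and choroid plexus markers (14 of 14 higher, summed 287 and 507 FPKM) were higher in the same samples, and their part in the guidance values was not tested. Ptgds alone held 165 and 265 FPKM of the meningeal sums, and Ttr 264 and 472 FPKM of the choroid plexus sums. Of these markers 1 meningeal and 0 choroid plexus were called. Of the 4 guidance genes, Ephb6 had 7.22 and 10.9 FPKM (log2 ratio 0.59, p = 0.0041, q = 0.455 by Cuffdiff in the authors' deposited table). Plxnb1, the receptor of Sema4d, had 1.43 FPKM and 6.78 FPKM (log2 ratio 2.24, p = 0.0346, q = 0.877 by Cuffdiff in the authors' deposited table). Its 95% interval read from the deposited p spans 0.16 to 4.33. The ratio is the widest of the guidance genes on summed FPKM and also among the least precise. Sema4d itself had 1.49 and 3.16 FPKM (log2 ratio 1.08, p = 0.183 by Cuffdiff in the authors' deposited table). Slit3, a ligand of Robo1 and Robo2, had 6.19 FPKM and 3.22 FPKM in the same order (log2 ratio -0.94, p = 0.0434, q = 0.886 by Cuffdiff in the authors' deposited table).

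The 9 guidance genes with more FPKM than Sema5a in control hippocampus did not pass in this comparison. Epha4 had 26.7 and 29.3 FPKM in control and TRF2 depleted samples (log2 ratio 0.13, 95% interval -0.26 to 0.53), and Efnb3 20.9 and 21.0 FPKM (log2 ratio 0.01, 95% interval -0.26 to 0.28), in the authors' deposited table. Summed over its rows, Epha7 had 23.1 and 18.9 FPKM, and its main row a log2 ratio of -0.48 (p = 0.0559 by Cuffdiff in the authors' deposited table). Sema6b had 19.1 and 20.9 FPKM and Sema7a 17.8 and 15.1 FPKM (p = 0.578 and p = 0.258 by Cuffdiff in the authors' deposited table). Epha6 had 15.9 and 12.6 FPKM, Efna3 12.9 and 15.1 FPKM, Plxna1 12.5 and 13.4 FPKM and Slit1 10.4 and 9.94 FPKM, with p = 0.244, p = 0.167, p = 0.57 and p = 0.815 by Cuffdiff in the authors' deposited table. Of the less abundant receptors, Nrp1 had 7.79 and 7.98 FPKM and Unc5c 5.35 and 5.59 FPKM (p = 0.862 and p = 0.685 by Cuffdiff in the authors' deposited table). Over the 69 genes at 0.5 FPKM or more, 36 were higher and 33 lower, with a median log2 ratio of 0.01. The median over all genes at that level was 0.00. Of these 69 genes 15 differed by 1.5-fold or more, and 20 were not tested by the authors.

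**Figure D4:**
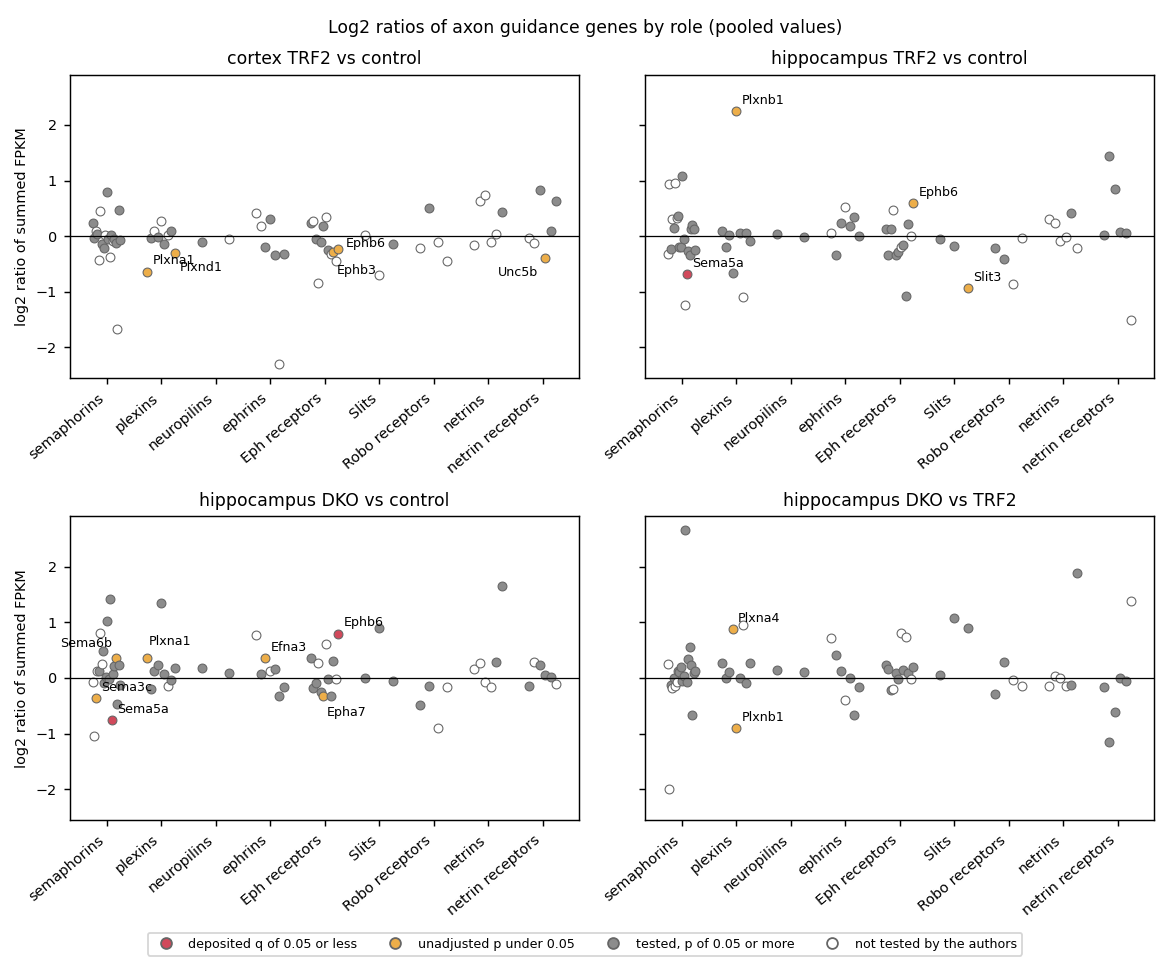
Log2 ratio of summed FPKM (y axis) for each axon guidance gene at 0.5 FPKM or more, by role (x axis), in the 4 comparisons. Colours give the deposited Cuffdiff result, red for q of 0.05 or less, orange for an unadjusted p under 0.05, grey for other tested genes and white for genes the authors did not test. Red marks Sema5a in both hippocampus comparisons with control and Ephb6 in DKO against control.

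In DKO hippocampus Ephb6 rose and Sema5a fell. Ephb6 stood at 7.22 FPKM in control, 10.9 FPKM in TRF2 depleted and 12.6 FPKM in DKO hippocampus in the authors' deposited table, so control was the lowest of the 3. The log2 ratio of DKO to control was 0.80 (p = 5e-05, q = 0.0301 by Cuffdiff in the authors' deposited table). DKO against TRF2 gave 0.21 (p = 0.214 by Cuffdiff in the authors' deposited table), with a 95% interval from -0.12 to 0.53. Cortical projection neuron markers summed to 33.4 FPKM in control, 34.6 in TRF2 depleted and 38.8 in DKO hippocampus. Of the 7 that reached 0.5 FPKM, 5 were higher in DKO (median log2 ratio 0.14) and 3 in TRF2 depleted hippocampus (median -0.003). CA pyramidal neuron markers summed to 168, 176 and 189 FPKM. Of the 9 that reached 0.5 FPKM, 7 were higher in DKO and 5 in TRF2 depleted hippocampus. Beside these counts, 52.5% of all genes at that level were higher in DKO and 51.0% in TRF2 depleted hippocampus. No marker of the 2 lists was called in either comparison. In DKO 0 cortical and 2 CA markers had an unadjusted p under 0.05 by Cuffdiff. No marker of either list was at 0 in hippocampus. Other lists also differed between the same conditions. Meningeal fibroblast markers were higher in 11 of 11 (summed 197 FPKM in control and 322 in DKO), interneuron markers in 7 of 7 (355 and 402 FPKM) and microglia markers in 8 of 9 (99.4 and 111 FPKM). Choroid plexus markers were lower in 13 of 14 (median log2 ratio -3.27, summed 287 and 11.1 FPKM), with Steap1, the remaining one, listed at 0 in DKO. Ptgds alone held 165 and 283 FPKM of the meningeal sums, and Ttr 264 and 5.52 FPKM of the choroid plexus sums. The part of these lists in the values of Ephb6 and of the other guidance genes was not tested. Whether reads of Trpv6 enter the Ephb6 row was not tested.

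The 2 called genes are 2 of 50 tested in this comparison, beside 0.204% of all tested genes (0.0713% higher and 0.132% lower). A further 5 had an unadjusted p under 0.05, and with the called genes this made 7, beside 7.18% of all tested genes. Of the 7 genes 4 were higher and 3 lower, where 4.05% and 3.13% of all tested genes were. Higher were Plxna1, a co-receptor of neuropilins (12.5 and 16.1 FPKM, log2 ratio 0.37, p = 0.0166), Efna3 (12.9 and 16.5 FPKM, log2 ratio 0.35, p = 0.0438) and Sema6b (19.1 and 24.5 FPKM, log2 ratio 0.36, p = 0.0474) by Cuffdiff in the authors' deposited table. Lower were Sema3c, a secreted semaphorin (4.15 and 3.23 FPKM, log2 ratio -0.36, p = 0.0206), and the main row of Epha7 (17.6 and 13.2 FPKM, log2 ratio -0.42, p = 0.044) by Cuffdiff in the authors' deposited table. None of these 5 passed after adjustment, with q between 0.743 and 0.886. Slit3, which was low in TRF2 depleted samples, had 6.19 FPKM in control and 5.99 FPKM in DKO hippocampus (p = 0.928 by Cuffdiff in the authors' deposited table). Robo1 had 4.33 and 3.07 FPKM (p = 0.0622 by Cuffdiff in the authors' deposited table). All 4 Robo genes had lower summed values in DKO, from -0.14 to -0.91 on the log2 scale. The same 4 were also lower in TRF2 depleted hippocampus, from -0.03 to -0.86. Of all genes at 0.5 FPKM or more, 52.5% were higher in DKO and 51.0% higher in TRF2 depleted hippocampus. Robo1 and Robo2 were not called, and the authors did not test Robo3 and Robo4. Over the 69 genes the median log2 ratio was 0.07, with 39 higher and 30 lower, beside a median of 0.02 over all genes at 0.5 FPKM or more.

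Between DKO and TRF2 depleted hippocampus 0 of 50 tested guidance genes were called by Cuffdiff, beside 0.153% of all tested genes, and 2 had an unadjusted p under 0.05, 1 higher and 1 lower (5.08% of all tested genes passed, 3.06% higher and 2.03% lower). Plxna4, a partner of Nrp1 in the response to Sema3a, had 5.75 FPKM in control, 3.65 in TRF2 depleted and 6.74 in DKO hippocampus, and the log2 ratio of DKO to TRF2 was 0.89 (p = 0.00645, q = 0.543 by Cuffdiff in the authors' deposited table). Plxnb1 had 6.78 and 3.62 FPKM, a log2 ratio of -0.90 (p = 0.0114, q = 0.661 by Cuffdiff in the authors' deposited table). The TRF2 depleted value was thus the lowest of the 3 for Plxna4 and the highest for Plxnb1. The netrin-G gene Ntng2 had 1.45, 1.25 and 4.60 FPKM in control, TRF2 depleted and DKO samples, with p = 0.0539 for DKO against TRF2 by Cuffdiff in the authors' deposited table. Choroid plexus markers summed to 507 FPKM in TRF2 depleted and 11.1 FPKM in DKO hippocampus, beside 287 in control, with Steap1 listed at 0 in DKO, and their part in these values was not tested. Ttr alone held 472, 5.52 and 264 FPKM of these sums in the same order.

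**Figure D5:**
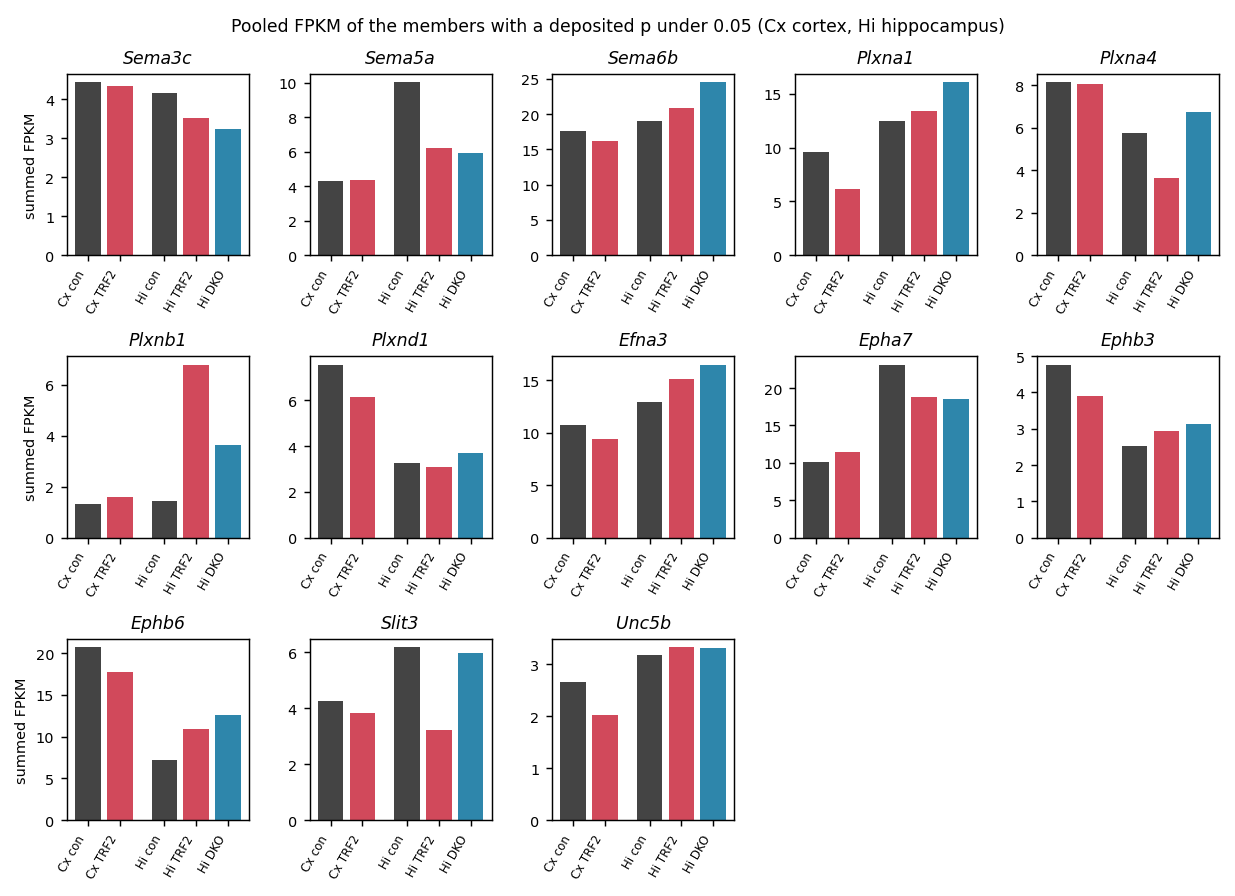
Summed FPKM (y axis, from 0) of the 13 axon guidance genes with an unadjusted deposited p under 0.05 in any comparison, in control and TRF2 depleted cortex (Cx) and in control, TRF2 depleted and DKO hippocampus (Hi). Bars are the authors' pooled values without error bars. Sema5a is at 10.0 FPKM in control hippocampus and near 6 in the other hippocampus conditions, and Ephb6 at 7.22, 10.9 and 12.6 FPKM.

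In TRF2 depleted cortex no guidance gene passed the authors' test. Of 37 tested genes 0 were called by Cuffdiff, beside 0.323% of all tested genes. The deposited cortex q was not a Benjamini-Hochberg adjustment over the cortex rows alone, so that share is not directly comparable with those in hippocampus. At an unadjusted p under 0.05 there were 5 guidance genes, beside 6.60% of all tested genes. All 5 were lower and were receptors, which made up 19 of the 37 tested genes, and receptors were not tested against ligands. At that threshold 4.46% of all tested genes were lower and 2.14% higher. Plxnd1, the receptor of Sema3e, had 7.56 FPKM and 6.13 FPKM in control and depleted samples (log2 ratio -0.30, p = 0.00835, q = 0.223 by Cuffdiff in the authors' deposited table). Unc5b, a repellent netrin receptor also known from vessels, had 2.66 and 2.02 FPKM (log2 ratio -0.40, p = 0.0086, q = 0.226 by Cuffdiff in the authors' deposited table). Plxna1 had 9.60 and 6.17 FPKM (log2 ratio -0.64, p = 0.0396), Ephb3 4.76 and 3.89 FPKM (-0.29, p = 0.0358) and Ephb6 20.7 and 17.7 FPKM (-0.22, p = 0.0361) by Cuffdiff in the authors' deposited table. The abundant ligands did not pass, with Sema7a at 34.1 and 32.5 FPKM, Sema6b at 17.6 and 16.1 FPKM and Efna3 at 10.7 and 9.41 FPKM (p = 0.477, p = 0.219 and p = 0.191 by Cuffdiff in the authors' deposited table). Over the 68 genes at 0.5 FPKM or more, 28 were higher and 40 lower with a median log2 ratio of -0.06, beside -0.03 over all genes at that level. Efnb2, a ligand of B-type Eph receptors, had the widest ratio of summed FPKM, with 1.90 and 0.383 FPKM (log2 ratio -2.31). It was among the 31 genes the authors did not test. In the same samples oligodendrocyte markers had a median log2 ratio of -0.24 (9 of 12 lower, summed 879 and 795 FPKM) and endothelial markers one of 0.13 (7 of 11 higher). Striatal neuron markers at 0.5 FPKM or more, 11 of the 14 listed, had one of 0.38 (11 higher, summed 80.2 and 101 FPKM). Penk, listed at 0 in at least 1 condition, was not among these 11. The choroid plexus markers that reached 0.5 FPKM, 7 of 14, summed to 98.8 and 2.64 FPKM, of which Ttr held 93.3 and 1.15 FPKM. Kcne2, Otx2 and Cldn2 were listed at 0 in at least 1 condition. The part of these lists in the receptor values was not tested.

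The response to TRF2 depletion was compared between tissues for 32 guidance genes tested under the same row identifier in both tables. Errors were read from the deposited p. Ephb6 had the smallest p, with a log2 ratio of -0.22 in cortex and 0.59 in hippocampus, a difference of 0.82 (95% interval 0.36 to 1.27, adjusted p = 0.214 over 7845 genes, computed from the authors' deposited table by a normal approximation). Sema5a followed, with 0.01 in cortex and -0.69 in hippocampus, a difference of -0.70 (95% interval -1.09 to -0.31, adjusted p = 0.214 over 7845 genes, computed from the authors' deposited table in the same way). Of the 32 genes 0 passed after adjustment, beside 2 of 7845 genes, and 6 had an unadjusted p under 0.05 (18.8%, beside 5.33% of all genes compared). A difference between the tissues is therefore not shown for Ephb6. For Sema5a the hippocampal p was the smallest deposited, 5e-05, so its implied error is an upper bound. Its interval and adjusted p may thus be too large, and the comparison cannot decide whether Sema5a differs between the tissues. The comparison treats the tissues as independent, and no label ties samples to animals.

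Other genes of the guidance pathway were read from a list of 67. It includes further ligands, adhesion molecules, co-receptors, adaptors, exchange factors, kinases, small GTPases and cytoskeletal effectors. None of the tested members passed by Cuffdiff in any comparison, with 48 tested in cortex and 53 in each hippocampus comparison. At an unadjusted p under 0.05 there were 2 in TRF2 depleted cortex (Rasa1 and Abl1), 1 in TRF2 depleted hippocampus, 3 in DKO against control and 5 in DKO against TRF2. Over all tested genes the shares at that threshold were 6.60%, 5.21%, 7.18% and 5.08% in the same order. Chl1, an adhesion molecule of the L1 family that binds neuropilins, had 13.6 FPKM in control, 7.59 in TRF2 depleted and 13.5 in DKO hippocampus. Its log2 ratio was -0.85 for TRF2 against control (p = 0.00405, q = 0.454) and 0.84 for DKO against TRF2 (p = 0.0014, q = 0.305) by Cuffdiff in the authors' deposited table. Ngef, an exchange factor downstream of Eph receptors, had 19.3, 18.9 and 22.9 FPKM in the same order (p = 0.0439 for DKO against control and p = 0.024 for DKO against TRF2 by Cuffdiff in the authors' deposited table). Flrt2, an adhesion protein that binds Unc5 receptors, had 4.45 and 3.04 FPKM in TRF2 depleted and DKO hippocampus (p = 0.0147 by Cuffdiff in the authors' deposited table). The adaptor Nck1 had 7.68 and 5.37 FPKM in control and DKO hippocampus, and the main row of Enah, an actin regulator, 7.49 and 4.83 FPKM (p = 0.0074 and p = 0.008 by Cuffdiff in the authors' deposited table). Median log2 ratios of the list were -0.04 in TRF2 depleted cortex, -0.07 in TRF2 depleted hippocampus, -0.05 in DKO against control and 0.03 in DKO against TRF2.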

How the data were processed

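Total RNA was extracted with RNeasy and libraries made with NEBNext Ultra, per the labels' protocols. According to the submitters' processing notes, CASAVA 1.8, TopHat2, Cufflinks, Cuffdiff and build mm10 were used, and other settings are not stated there. The values the authors deposited are FPKM for each coding-sequence row, pooled over replicates, together with the p-value and q-value of Cuffdiff, all as the file headers name them. Depth is unknown. No label ties samples to animals, so p-values speak only of the spread among these samples in the authors' model, which may be technical. Whether the pools hold the unassigned sample is unknown.

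FPKM was summed by gene and kept at 0.5 or more in 1 condition. Log2 ratios of sums have no pseudocount. A gene's p and q come from its most abundant tested row. The smallest deposited p is 5e-05, where an implied error is an upper bound. In hippocampus q matched a Benjamini-Hochberg adjustment over 3 comparisons to within 5.26e-07. In cortex q differed from one over that table by up to 0.335. Of the tested cortex rows 29 had a deposited q up to 0.05, and 14 passed under a Benjamini-Hochberg adjustment over that table. Intervals are 95% and read the deposited p as two-sided normal.

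Members, lists and tests were chosen with earlier results of these data known. Named are called genes, genes with an unadjusted p under 0.05, up to 3 leading genes of a role, and up to 3 pathway genes with the smallest p. Others, such as Sema4d, Ntng2, Efnb2 and the genes 2-fold apart between tissues, were chosen after their values were seen. Alternatives covered the q threshold and adjustment, minimum FPKM, pseudocount, centring and choice of row. Scripts ran in Python 3.11.15 (scipy 1.17.1, pandas 2.3.3, numpy 2.4.6).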

Additional observations from a re-analysis of the deposited data

How the results depend on the processing

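At a deposited q of 0.01 the count of called guidance genes was 0 in TRF2 depleted and 0 in DKO hippocampus, because the smallest q there is 0.0301. At a q of 0.10, with q adjusted within each comparison, with any tested row, or with a minimum of 1 or no FPKM, the counts of called genes stayed at 0, 1, 2 and 0 in the 4 comparisons. The log2 ratio of Sema5a ranged from -0.69 to -0.61 in TRF2 depleted and from -0.78 to -0.68 in DKO hippocampus over pseudocounts, rows and centring, and that of Ephb6 in DKO from 0.72 to 0.80. Of 560 log2 ratios of named genes under these alternatives, 42 moved by 0.1 or more and 0 called values changed sign. Pooled values allow no sample to be left out. No paired analysis was possible because the deposited values are pooled and no label ties samples to animals.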

Other observations

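Epha7 was spread over 3 coding-sequence rows whose shares differed between the tissues, a pattern noticed after its values were seen. In control hippocampus 1 row held 76.3% of the gene's summed FPKM (17.6 of 23.1 FPKM) and another 20.3%. In control cortex the rows matched to them held 12.9% and 66.6% (1.30 and 6.75 of 10.1 FPKM). In the TRF2 depleted samples the first of these rows held 67.2% in hippocampus and 21.4% in cortex, so the tissues stood apart in both conditions. Rows were matched between the tissues by the order of their identifiers, and whether matched rows hold the same coding sequence was not checked. The division of reads between rows of a gene is an estimate without a deposited error. The tables were normalised separately, and no test of the shares was made.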
